A study of Mus musculus with 16 samples.

Results

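Runx2, Sp7, Dlx3, Dlx5, Msx2 and Mef2c are 6 transcription factor genes of the osteoblast lineage, taken by name from the 32285 genes of the count matrices. Their transcripts were followed by single-cell RNA sequencing of mineralizing bone marrow stromal cell (BMSC) cultures from C57BL/6J mice, in 17793 cells of 15 samples. Marrow of 12-week-old mice was cultured for 21 days with 10 mM β-glycerophosphate and ascorbic acid, which drive osteoblast differentiation, and live 7-AAD-negative cells were sorted. All groups carried floxed Fgf23 alleles. WT cultures were Dmp1+/+, Fgf23 fl/fl and without Cre, and Fgf23cKO cultures were Dmp1+/+, Fgf23 fl/fl with Dmp1-cre, a transgene active in mature osteoblasts and osteocytes. Dmp1KO cultures were Dmp1-/-, Fgf23 fl/fl and without Cre, and Dmp1KO/Fgf23cKO cultures were Dmp1-/-, Fgf23 fl/fl with Dmp1-cre. The matrices held 3 tagged cultures each of WT, Fgf23cKO and Dmp1KO/Fgf23cKO and 2 of Dmp1KO (replicates 2 and 3; replicate 1 was not analysed here), besides 1 sample of untagged cells per genotype, numbered replicate 4. The cultures of a genotype shared 1 droplet reaction, and a difference between genotypes cannot be told apart from one between reactions. The study's methods describe individual cultures and its captions count mice, and p-values measure the spread between these cultures.

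RUNX2 is the transcription factor that commits mesenchymal cells to the osteoblast lineage, and SP7 (osterix) acts downstream of it. DLX3, DLX5 and MSX2 are homeodomain proteins that act in the same lineage, with DLX proteins mostly activating and MSX2 mostly repressing bone matrix genes. MEF2C is a MADS-box factor with roles in muscle, myeloid cells and osteocytes, where it regulates Sost. RUNX proteins bind DNA with the partner CBFB at the core letters ACCACA, and homeodomain proteins favor TAATTA-type letters.

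In the mm10 build with GENCODE M21 annotation, Runx2 (ENSMUSG00000039153) lies on the minus strand of chr17:44495987-44814797 and spans 319 kb, and 4 genes on the opposite strand overlap it (Runx2os1, Runx2os2, Runx2os3 and Supt3). Sp7 (ENSMUSG00000060284) is at chr15:102356606-102367182 on the minus strand, and Dlx3 (ENSMUSG00000001510) at chr11:95120119-95125296 on the plus strand. Dlx5 (ENSMUSG00000029755) is at chr6:6877805-6882085 and Msx2 (ENSMUSG00000021469) at chr13:53466884-53473074, both on the minus strand. Mef2c (ENSMUSG00000005583) is at chr13:83504034-83667080 on the plus strand and spans 163 kb. Whether the counting used strand was not given in the sources used here. Whether the Runx2 counts hold reads of its antisense genes was not tested. Runx2os1 itself was counted at 4.99 CPM (UMIs per 1000000 UMIs of those cells) in stromal cells and 1.44 in macrophage-like cells.

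Promoter windows of RefSeq (GRCm38.p6) were matched for 3 of the 6 genes, Runx2, Msx2 and Mef2c, while Sp7, Dlx3 and Dlx5 had no matched entry. The 250 bases before the start are shown for Runx2 and Mef2c, since these 2 genes were found in both stromal cells and macrophages, and for Bglap (osteocalcin), a classical RUNX2 target that changed with genotype below. Both strands were searched. Capitals mark the RUNX letters ACCACA in the windows of Runx2 and Bglap. In Mef2c they mark the homeodomain letters TAATTA, which read alike on both strands, or the related TAATTG, which reads as CAATTA when it lies on the other strand. Runx2 is at chr17:44814628-44814877 on the minus strand, Bglap at chr3:88384467-88384716 on the minus strand, and the Mef2c starts 1 and 2 at chr13:83503784-83504033 and chr13:83523406-83523655 on the plus strand.
Runx2: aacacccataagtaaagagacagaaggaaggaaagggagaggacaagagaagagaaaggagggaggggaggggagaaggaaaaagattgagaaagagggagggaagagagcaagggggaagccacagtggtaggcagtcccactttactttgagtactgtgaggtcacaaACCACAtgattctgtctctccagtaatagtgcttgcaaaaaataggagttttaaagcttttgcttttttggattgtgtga
Bglap: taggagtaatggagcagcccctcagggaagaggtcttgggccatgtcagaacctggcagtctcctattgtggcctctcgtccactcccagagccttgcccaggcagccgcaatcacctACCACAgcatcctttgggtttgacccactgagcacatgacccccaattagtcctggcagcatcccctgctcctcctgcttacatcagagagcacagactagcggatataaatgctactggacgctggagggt
Mef2c start 1: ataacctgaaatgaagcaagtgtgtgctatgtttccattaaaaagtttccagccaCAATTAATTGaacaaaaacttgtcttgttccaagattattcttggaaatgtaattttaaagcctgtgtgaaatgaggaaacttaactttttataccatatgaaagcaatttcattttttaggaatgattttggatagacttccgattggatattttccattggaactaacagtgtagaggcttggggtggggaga
Mef2c start 2: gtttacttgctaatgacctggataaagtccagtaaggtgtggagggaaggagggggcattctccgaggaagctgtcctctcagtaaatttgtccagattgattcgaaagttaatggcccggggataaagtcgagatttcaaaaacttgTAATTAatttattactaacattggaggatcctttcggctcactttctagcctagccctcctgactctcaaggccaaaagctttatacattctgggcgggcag
The Runx2 window held 1 ACCACA, 80 bases before the start, and the Bglap window held 1, 132 bases before the start. The first Mef2c window held 2 overlapping matches of the TAATTG type, 195 and 191 bases before the start, and the second held 1 TAATTA, 102 bases before it. The Mef2c window of start 3, not shown, held neither. Of the matrix genes also searched, Ibsp and the first Dmp1 window held no ACCACA. The second Dmp1 window held 1, 164 bases before the start. Of 32851 mouse promoter windows of the same length, 14% held ACCACA on either strand, 4.84% held TAATTA and 7.17% held TAATTG. These are letter matches only.

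Tagged cultures held 470 to 2825 cells and 9518928 to 72482185 UMIs (unique molecular identifiers, the counted transcripts). The median UMIs per cell were 7137 to 7275.5 in WT cultures and 20016.5 to 34988 in the other genotypes, so shares of cells with a UMI are given also after thinning each cell to 1300 UMIs, which leaves out shallower cells. Clustering gave 20 clusters. Stromal cells (1664) comprised contractile stromal-like cells (704, median 2825.5 UMIs), fibroblastic stromal-like cells (425, median 52112) and osteoblast/osteocyte-like cells (535, median 1862), and 9083 cells were macrophage-like (median 15522). The 13 osteoblast markers summed to 50500 CPM in stromal cells and 209 in macrophage-like cells, and the 13 macrophage markers to 3530 and 39900. In the osteoblast/osteocyte-like cells, Dmp1 had 409 to 1704 UMIs per WT culture, 107 to 1145 per Fgf23cKO culture, 0 to 3 per Dmp1KO culture and 22 to 51 per Dmp1KO/Fgf23cKO culture. Fgf23, whose first exon is floxed, had at most 8 UMIs per sample and was too rare to check the deletion. No cell barcode was shared by samples of a genotype, and 0 to 6 were shared by pairs of other samples.

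Among cell classes, Runx2 was highest in the bone-forming stroma and in an unnamed cluster that expressed Sox6 and Acan. Summed over samples, Runx2 stood at 695 CPM in fibroblastic stromal-like cells, 725 in osteoblast/osteocyte-like cells and 795 in the unnamed Sox6 and Acan cluster of 115 cells. It was 23.4 in contractile stromal-like cells and 22.3 in macrophage-like cells. The osteoblast/osteocyte-like class joined 2 unlike clusters. Runx2 was 179 in that of 383 cells (median 1048 UMIs) and 788 in that of 152 cells (median 61183.5). Thinned, 18.8% and 65.8% of their cells had a Runx2 UMI. Thinned to equal depth, 54.8% of fibroblastic, 42.2% of osteoblast/osteocyte-like, 3.33% of contractile and 3.37% of macrophage-like cells had a Runx2 UMI, against 99.1%, 44.5%, 7.53% and 26.2% at full depth. The exact (Clopper-Pearson) 95% interval, which covers counting error only, was 1.99 to 5.22% for contractile and 3.01 to 3.76% for macrophage-like thinned cells, so the gap between them at full depth was not seen at equal depth. Thinning left out 164 contractile, 229 osteoblast/osteocyte-like and 9 macrophage-like cells. Among the remaining classes Runx2 was 154 in the Lingo2 cluster, 37.7 in the Fbxo32 Atp6v0d2 cluster, 28.4 in both osteoclast-like cells and the Itgax Dcstamp cluster, and 20.1 in cycling cells. Since classes were made by clustering the same cells, these levels are a description with no test. With the 6 genes left out of the clustering, 1660 of the stromal cells and 8979 of the macrophage-like cells were classed as before.

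Sp7 was a gene of the stroma. It reached 179 CPM in osteoblast/osteocyte-like cells, 95 in fibroblastic and 10.5 in contractile stromal-like cells, against 0.599 (112 UMIs in 9083 cells) in macrophage-like cells. After thinning, 17% of osteoblast/osteocyte-like, 13.2% of fibroblastic and 0.0771% of macrophage-like cells had an Sp7 UMI. The macrophage share, with a 95% interval of 0.031 to 0.159%, is the share in a class that should lack this gene. Within the osteoblast/osteocyte-like class, the deep cluster of 152 cells (median 61183.5 UMIs) had Sp7 in 98.7% of cells, at 193 CPM. The shallow cluster of 383 cells (median 1048 UMIs) had it in 11.2%, at 55.8 CPM.

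In summed samples, Dlx3 and Dlx5 were highest in different stromal subsets. Dlx3 was 35.1 CPM in osteoblast/osteocyte-like cells, 5.63 in fibroblastic and 1.22 (5 UMIs) in contractile stromal-like cells. Dlx5 had the opposite order at the top, with 36.4 in fibroblastic and 27.8 in osteoblast/osteocyte-like cells, and it was 4.15 in contractile cells. Per culture, the Dlx5 ranges of these top subsets did not overlap in WT (36.8 to 48.7 and 19.8 to 33.6). In Dmp1KO/Fgf23cKO they did overlap (30.8 to 41 and 28.4 to 40.5). Thinned shares followed the same orders for both genes, with Dlx3 in 4.58% of osteoblast/osteocyte-like cells and Dlx5 in 5.65% of fibroblastic and 2.29% of osteoblast/osteocyte-like cells. Msx2 was rare throughout, with 3.9 in fibroblastic cells (119 UMIs), 2.02 in osteoblast/osteocyte-like cells (28 UMIs) and none in 704 contractile cells, where a count of 0 allows up to 0.732 CPM. In macrophage-like cells, Dlx3, Dlx5 and Msx2 had 9, 24 and 2 UMIs in all.

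Mef2c had a different distribution from the other 5 genes. It was 952 CPM in osteoblast/osteocyte-like cells and 575 (107573 UMIs) in macrophage-like cells, but 123 in fibroblastic and 90.7 in contractile stromal-like cells. The 2 clusters of the osteoblast/osteocyte-like class stood at 416 (383 cells) and 1010 (152 cells). The 13 macrophage markers summed to 6300 CPM in contractile, 2650 in fibroblastic and 4650 in osteoblast/osteocyte-like cells, against 39900 in macrophage-like cells. Whether part of the stromal Mef2c came from macrophage RNA was not tested. Thinned, 55.6% of osteoblast/osteocyte-like cells, 47.3% of macrophage-like cells and 14.1% of fibroblastic cells had a Mef2c UMI. Cells related to macrophages by their markers carried less, with 351 in cycling, 171 in Itgax Dcstamp, 148 in osteoclast-like and 114 in Fbxo32 Atp6v0d2 cells. Across the clusters named macrophage-like, Mef2c ranged from 71.5 to 711 and Runx2 from 3.86 to 31.7.

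**Figure D1:**
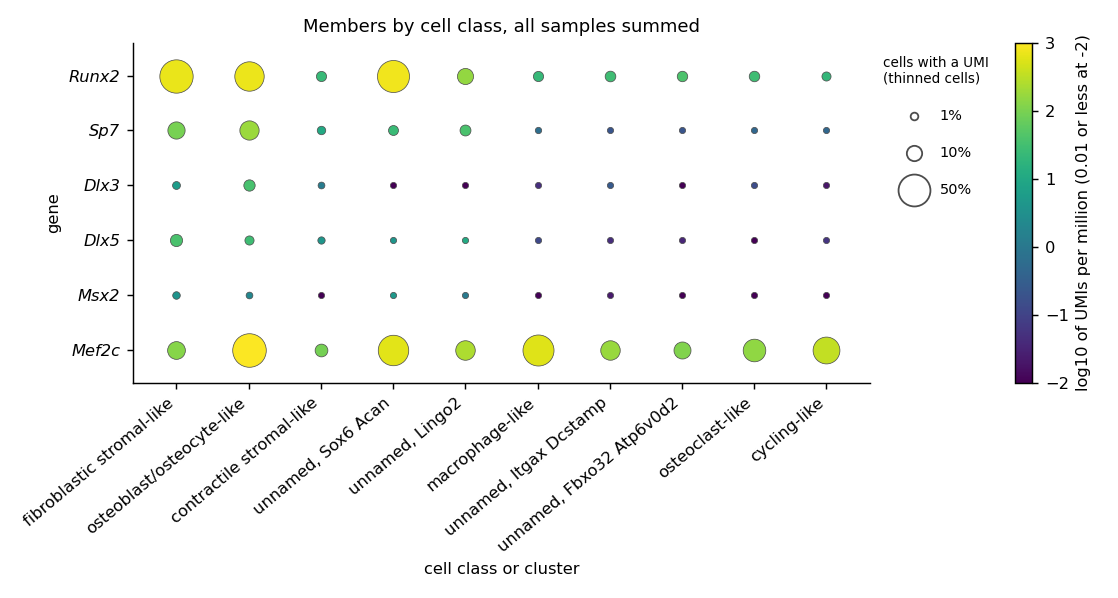
Each dot is 1 gene (rows) in 1 cell class or cluster (columns), all samples summed; color gives the log10 of CPM and dot area grows with the percentage of cells with a UMI after thinning to 1300 UMIs. Large Mef2c dots stand in both the osteoblast/osteocyte-like column (55.6% of thinned cells) and the macrophage-like column (47.3%), while Sp7, Dlx3, Dlx5 and Msx2 are near 0 outside the stroma and the 2 small unnamed clusters beside it.

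The osteoblast genes were found together in single cells. Of the stromal cells with an Sp7 UMI, 92.1% of 567 also had a Runx2 UMI, against 17.3% of the other stromal cells. Runx2 was seen in 95.9% of 220 Dlx3-positive cells, 96.6% of 437 Dlx5-positive cells, 98.9% of 91 Msx2-positive cells and 75.8% of 718 Mef2c-positive cells. In macrophage-like cells the 111 Sp7-positive cells had Runx2 in 27.9%, close to the 26.1% of the other macrophage-like cells. All 6 genes were detected in 38 stromal cells (2.28%), none of them in 738 (44.4%), and no macrophage-like cell had more than 3. Stromal cells range widely in depth, and joint detection follows depth: after thinning, 4 stromal cells had 4 of the genes and none had more.

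Over the 20 clusters, the levels of Sp7 and Dlx5 were the most alike among the 6 (Pearson r = 0.959 of log levels), followed by Runx2 and Msx2 (r = 0.924), and Mef2c was unlike Dlx5 (r = -0.0114) and Sp7 (r = 0.104). The clusters share libraries and differ in depth, so these values are descriptive. Of 11103 genes, those nearest to Sp7 were Gxylt2 (r = 0.9919), Ccn1 and Kdelr3, and those nearest to Runx2 were Ptprs (r = 0.9673) and Tsc22d1. Nearest to Dlx3 stood Plb1 (r = 0.9796), with Bmp3 and Smpd3, a sphingomyelinase of mineralizing bone, also among the first 5. For Dlx5 the first was Mfap2 (r = 0.9733), for Msx2 8030451A03Rik (r = 0.9769), and for Mef2c Epb41l2 at a lower r of 0.8929.

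The level of each gene was next compared between genotypes in stromal cells, from UMI counts summed per tagged culture. Sp7, Dlx3 and Mef2c were lower in Fgf23cKO and in Dmp1KO than in WT, while Runx2, Dlx5 and Msx2 passed in no genotype comparison of the tagged cultures. In Dmp1KO/Fgf23cKO, Sp7, Dlx3 and Mef2c were higher than in Dmp1KO, and of the 6 only Dlx3 passed as lower than WT. When every cell was thinned to equal depth, Dlx3 was too rare to be tested. Sp7 and Mef2c then also passed as lower than WT in Dmp1KO/Fgf23cKO, and Sp7 no longer passed against Dmp1KO. Thinning leaves out cells under 1300 UMIs and gives each kept cell the same weight, so the mixture of subsets changes along with depth. Before thinning, contractile stromal-like cells were 26, 22 and 29 of the 95, 65 and 130 stromal cells in WT. In Dmp1KO/Fgf23cKO they were 35, 59 and 37 of 84, 124 and 69. The part of this mixture in the thinned results was not tested. The test was edgeR's quasi-likelihood test with Benjamini-Hochberg adjustment over all 12442 genes tested, at a threshold of 0.1.

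Dlx3 showed the largest change of the 6. Its level in WT cultures 1 to 3 was 26.7, 35.3 and 41.6 CPM. In Fgf23cKO it was 12.2, 12.8 and 4.1, in Dmp1KO (replicates 2 and 3) 1.89 and 4.64, and in Dmp1KO/Fgf23cKO 15.4, 17.6 and 10.6. Every WT culture stood above every culture of the other genotypes, and the Dmp1KO/Fgf23cKO cultures stood above both Dmp1KO cultures. The counts behind these levels were small, 32 to 99 UMIs per WT culture and 4 and 14 in the Dmp1KO cultures. The log2 difference from WT was -1.82 ± 0.37 (SE, adjusted p = 0.01238) in Fgf23cKO, -3.44 ± 0.51 (adjusted p = 0.001431) in Dmp1KO and -1.33 ± 0.35 (adjusted p = 0.02631) in Dmp1KO/Fgf23cKO. Dmp1KO/Fgf23cKO exceeded Dmp1KO by 2.11 ± 0.51 (adjusted p = 0.03796). Without WT culture 3, the Dmp1KO/Fgf23cKO difference from WT was -1.10 with an adjusted p of 0.1375.

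Sp7 followed the same order with tighter replicates. It was 168, 182 and 168 CPM in WT, 105, 129 and 65.1 in Fgf23cKO, 56.8 and 74.6 in Dmp1KO, and 127, 142 and 137 in Dmp1KO/Fgf23cKO. The WT cultures did not overlap with any other genotype, and Fgf23cKO culture 2 reached the lower end of Dmp1KO/Fgf23cKO. Relative to WT, the log2 difference was -0.83 ± 0.21 (SE, adjusted p = 0.03352) in Fgf23cKO and -1.49 ± 0.25 (adjusted p = 0.00274) in Dmp1KO. In Dmp1KO/Fgf23cKO it was -0.43 ± 0.21 (adjusted p = 0.2043), which did not pass, and the difference from Dmp1KO was 1.06 ± 0.25 (adjusted p = 0.03124). Both outcomes changed after thinning to equal depth, which also weights the stromal subsets by cell number. There, Sp7 in Dmp1KO/Fgf23cKO was -0.98 relative to WT (adjusted p = 0.07555) and 0.45 relative to Dmp1KO (adjusted p = 0.725) by edgeR.

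Mef2c levels in stromal cells were 497, 684 and 642 CPM in WT, 308, 392 and 163 in Fgf23cKO, 221 and 200 in Dmp1KO, and 387, 549 and 418 in Dmp1KO/Fgf23cKO. Dmp1KO/Fgf23cKO culture 2 lay within the WT range and the other 2 lay below it. Mef2c differed from WT by -1.12 ± 0.28 (SE, adjusted p = 0.02985) in Fgf23cKO, -1.65 ± 0.33 (adjusted p = 0.006326) in Dmp1KO and -0.51 ± 0.28 (adjusted p = 0.2536) in Dmp1KO/Fgf23cKO. It was higher in Dmp1KO/Fgf23cKO than in Dmp1KO by 1.14 ± 0.32 (adjusted p = 0.06193). Thinned to equal depth, with the same change of subset weights, Mef2c in Dmp1KO/Fgf23cKO passed as lower than WT (-0.76, adjusted p = 0.03999).

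Runx2, the factor at the head of the lineage, had overlapping ranges in WT, Fgf23cKO and Dmp1KO. It was 697, 651 and 543 CPM in WT, 645, 516 and 377 in Fgf23cKO, 613 and 732 in Dmp1KO, and 879, 745 and 828 in Dmp1KO/Fgf23cKO. The Dmp1KO/Fgf23cKO cultures stood above all others, yet the difference did not pass the test against WT (0.30 ± 0.18, adjusted p = 0.296) or Dmp1KO (0.31 ± 0.20, adjusted p = 0.3954). Between Dmp1KO and WT, the Runx2 difference was -0.01 ± 0.20 (adjusted p = 0.9881), with a sign that depended on the processing. Other samples brought Runx2 past the threshold: with the untagged samples as replicates it was higher in Dmp1KO/Fgf23cKO than in Dmp1KO (0.59, adjusted p = 0.07689) and its interaction was 1.00 (adjusted p = 0.02302). Without Fgf23cKO culture 1, it was lower in Fgf23cKO than in WT (-0.56 against -0.34, adjusted p = 0.06482) and the interaction was 0.86 (adjusted p = 0.03453). Dlx5 ranged from 25.6 to 36.6 in WT, 28.7 to 31.8 in Fgf23cKO, 27.5 to 30.8 in Dmp1KO and 28.6 to 36.5 in Dmp1KO/Fgf23cKO, so that all 4 ranges overlapped. Msx2 rested on 1 to 29 UMIs per tagged culture. It was 0.704 to 2.21 in WT, below the 2.37 and 3.98 of Dmp1KO and the 2.58 to 5.72 of Dmp1KO/Fgf23cKO, but the lowest adjusted p was 0.2928.

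**Figure D2:**
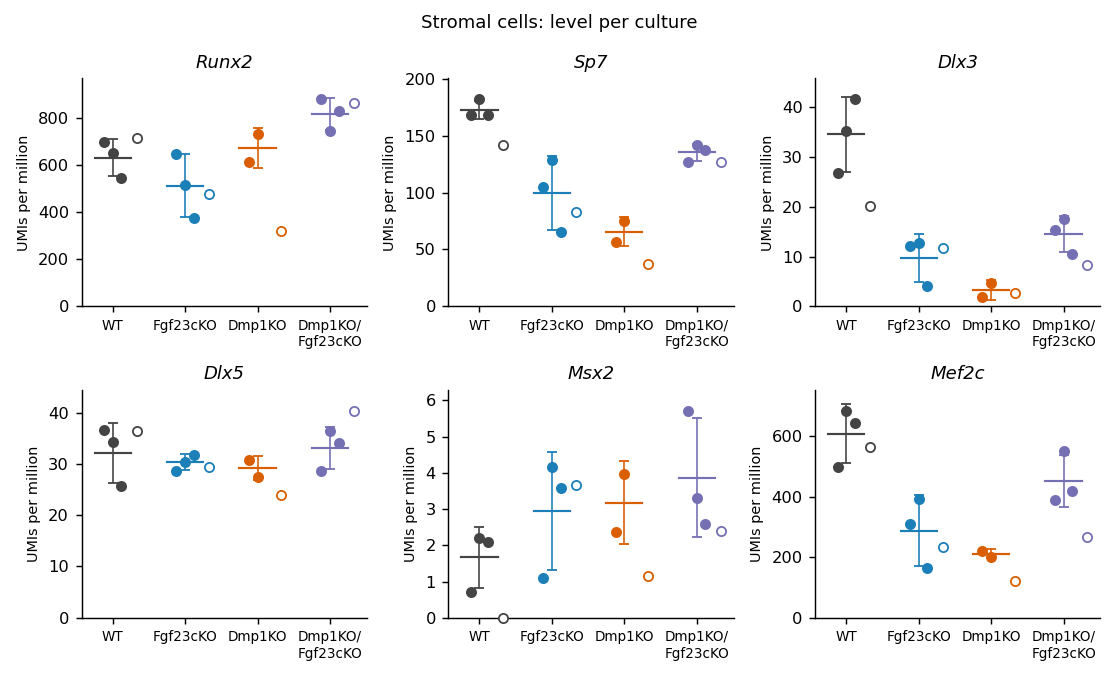
CPM of each gene in the stromal cells of each culture; filled points are tagged cultures, open points the untagged sample of the genotype, horizontal lines the mean and bars the SD of tagged cultures (n = 3, for Dmp1KO n = 2). Sp7, Dlx3 and Mef2c fall from WT to Fgf23cKO and Dmp1KO, whereas Dlx5 stays between 25.6 and 36.6 in every tagged culture.

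Read against all genes, 3 of the 6 genes were called in Fgf23cKO against WT, all lower, where 15.6% of the genes tested were called and 8.09% were lower. In Dmp1KO against WT 3 were called, all lower, beside 24.6% of all genes called and 13.6% lower. For Dmp1KO/Fgf23cKO, 1 gene was lower than WT beside 20.4% of all genes called and 10.9% lower, and 3 were higher than Dmp1KO beside 10.7% called and 6.11% higher. The median log2 difference of the 6 genes was -0.58, -0.86, -0.22 and 0.69 in these 4 comparisons, and that of all genes lay between -0.04 and 0.02. The first 3 comparisons share the WT cultures, and the last shares cultures with those of Dmp1KO and Dmp1KO/Fgf23cKO. The untagged samples, which entered no test, had Dlx3 at 20.2 in WT, 11.8 in Fgf23cKO, 2.7 in Dmp1KO and 8.39 in Dmp1KO/Fgf23cKO, and Sp7 at 142, 82.9, 37.1 and 127. The leave-one-out fits held the Fgf23cKO and Dmp1KO calls for Sp7, Dlx3 and Mef2c, but without Dmp1KO culture 2 or 3 none of the 3 genes passed between Dmp1KO/Fgf23cKO and Dmp1KO. Without Dmp1KO/Fgf23cKO culture 2, Sp7 alone passed there.

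The design crosses Dmp1 loss with Fgf23 deletion, and the interaction asks whether Fgf23 deletion changed a gene differently on the Dmp1-deficient background. In stromal cells it was positive for Dlx3 (log2 3.93 ± 0.63 SE, adjusted p = 0.004123), Mef2c (2.26 ± 0.43, adjusted p = 0.007915) and Sp7 (1.90 ± 0.33, adjusted p = 0.005559) by edgeR's quasi-likelihood test. For these 3 genes, Fgf23 deletion went with a lower level when Dmp1 was intact and a higher level when it was lost. Runx2 (0.65 ± 0.27, adjusted p = 0.1408), Dlx5 and Msx2 did not pass. Over all genes 18.3% passed for the interaction, 10.2% as positive, and the median was 0.04 against 1.27 for the 6 genes.

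The make-up of the stroma moved with these differences. Osteoblast/osteocyte-like cells supplied 42.7, 42.7 and 55.1% of stromal UMIs in the WT cultures, 33.9, 36.6 and 9.1% in Fgf23cKO, 4.88 and 9.5% in Dmp1KO and 26.4, 46.4 and 24.8% in Dmp1KO/Fgf23cKO. The lowest Fgf23cKO share was in culture 3, which also had the lowest Sp7, Dlx3 and Mef2c of its genotype. In summed cells, fewer cells of a type and less RNA per cell cannot be told apart, so the comparison was also made without the osteoblast/osteocyte-like cells and within single subsets.

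Without the osteoblast/osteocyte-like cells, Sp7 was still called as lower in Fgf23cKO (-0.94, adjusted p = 0.006697) and Dmp1KO (-1.21, adjusted p = 0.003106) than in WT and higher in Dmp1KO/Fgf23cKO than in Dmp1KO (0.79, adjusted p = 0.07009), by the same edgeR test. The Sp7 interaction was 1.72 (adjusted p = 0.005258). Dlx3 was still called in Dmp1KO (-2.54, adjusted p = 0.06102) but not in Fgf23cKO (-1.12, adjusted p = 0.293) or Dmp1KO/Fgf23cKO (-1.36, adjusted p = 0.1688). Its difference between Dmp1KO/Fgf23cKO and Dmp1KO went from 2.11 to 1.18 (adjusted p = 0.4835) and its interaction from 3.93 to 2.30 (adjusted p = 0.1987), and neither passed. Mef2c lost each of its calls, with -1.10 (adjusted p = 0.136) in Fgf23cKO, -0.91 (adjusted p = 0.2675) in Dmp1KO, 0.23 for Dmp1KO/Fgf23cKO against Dmp1KO (adjusted p = 0.8656) and an interaction of 1.33 (adjusted p = 0.2545).

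Within fibroblastic stromal-like cells alone, Sp7 was 160, 175 and 132 CPM in WT, 84.2, 85.6 and 66.3 in Fgf23cKO, 57.5 and 78.2 in Dmp1KO, and 117, 103 and 128 in Dmp1KO/Fgf23cKO. The WT cultures stood above all others and the Dmp1KO/Fgf23cKO cultures above the remaining 5. Fibroblastic Sp7 was lower than in WT by edgeR in Fgf23cKO (-0.94 ± 0.16 SE, adjusted p = 0.007177) and Dmp1KO (-1.17 ± 0.19, adjusted p = 0.004382), while Dmp1KO/Fgf23cKO differed from WT by -0.44 (adjusted p = 0.1029) and from Dmp1KO by 0.73 (adjusted p = 0.1086), both just outside the threshold. Fibroblastic Dlx3 was lower in Dmp1KO at 1.17 and 2.1 against 9.74, 15.3 and 10.5 in WT (-2.73 ± 0.80, adjusted p = 0.05764), a call lost in 4 of 11 leave-one-out fits. Thinned to equal depth, Sp7 and Dlx3 had too few UMIs in fibroblastic cells to be tested. Runx2, Dlx5 and Mef2c did not pass in these cells, and Mef2c was 117, 256 and 213 in WT against 101 and 94.2 in Dmp1KO. Of the members, 1 was called in Fgf23cKO beside 11.7% of 11665 genes and 2 in Dmp1KO beside 12.1%. None was called in Dmp1KO/Fgf23cKO against WT (15.8% of genes) or Dmp1KO (0.952%) by edgeR. At an unadjusted p under 0.05, 2 were called against WT and 1 against Dmp1KO, and DESeq2 called 0 and 1. The shares of all genes at these settings are not shown, so these counts cannot be read as a result about the members. The 13 osteoblast markers summed to 11600 to 27800 CPM in the fibroblastic cells of WT cultures, 9040 to 19600 in Fgf23cKO, 10900 to 14300 in Dmp1KO and 21800 to 25200 in Dmp1KO/Fgf23cKO. They moved with Sp7 between Dmp1KO and Dmp1KO/Fgf23cKO, and their part in the Sp7 differences was not tested.

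**Figure D3:**
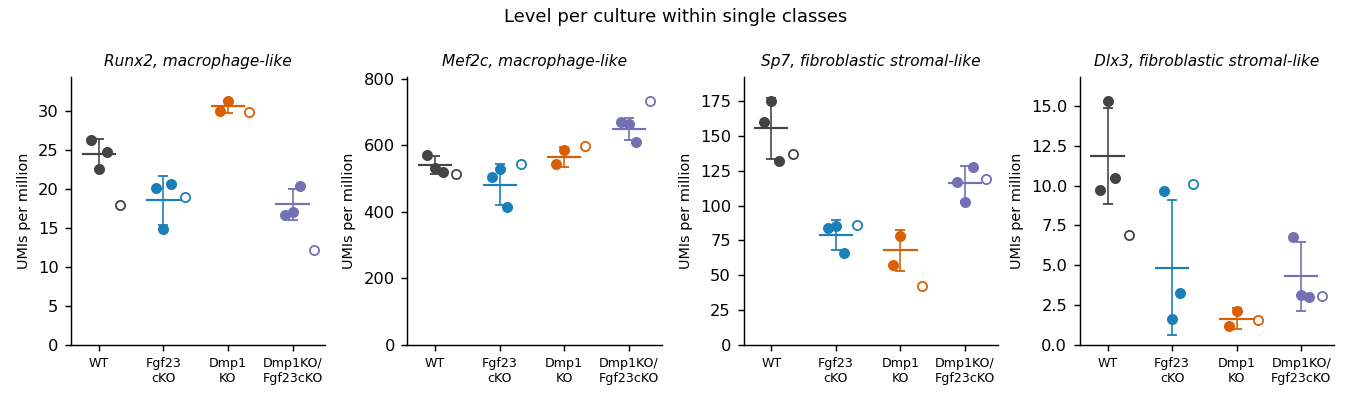
CPM per culture for Runx2 and Mef2c in macrophage-like cells and for Sp7 and Dlx3 in fibroblastic stromal-like cells; filled points are tagged cultures, open points untagged samples, lines the mean and bars the SD (n = 3, for Dmp1KO n = 2). Runx2 in macrophage-like cells is 30 and 31.2 in Dmp1KO against 16.7 to 20.3 in Dmp1KO/Fgf23cKO, and fibroblastic Sp7 in tagged cultures is 132 or more in WT against 128 or less elsewhere.

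In osteoblast/osteocyte-like cells, WT and Dmp1KO/Fgf23cKO had enough cells to be tested (23 to 58 and 10 to 35 per culture). Dlx3 was 51.1, 64.7 and 67.9 CPM in WT and 41.1, 34.7 and 34.7 in Dmp1KO/Fgf23cKO, with no overlap. The log2 difference was -0.86 ± 0.20 (SE, adjusted p = 0.02595, edgeR), in a comparison where 13.6% of 8583 genes were called and Dlx3 was the only one of the 6, and it no longer passed without WT culture 3 or Dmp1KO/Fgf23cKO culture 2. Mef2c was 1000, 1230 and 991 in WT and 1100, 1120 and 1100 in Dmp1KO/Fgf23cKO, which overlapped (-0.08, adjusted p = 0.8207). The other genotypes had few of these cells (16, 7 and 5 in Fgf23cKO, 2 and 8 in Dmp1KO), with Dlx3 at 19.3, 32.4 and 16.9 in Fgf23cKO from 30, 37 and 3 UMIs and at 19.4 and 27.9 in Dmp1KO from 2 and 8 UMIs. Mef2c there was 637, 975 and 985 in Fgf23cKO and 2070 and 1290 in Dmp1KO, so that its Dmp1KO values were above WT in these cells although its stromal sum was below.

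Contractile stromal-like cells held few UMIs of these genes. Runx2 rested on 8, 4 and 12 UMIs in the WT cultures (82.8, 63.4 and 102 CPM), 1, 0 and 1 in Fgf23cKO, 10 and 5 in Dmp1KO and 3, 8 and 3 in Dmp1KO/Fgf23cKO. Mef2c had 16, 29 and 25 UMIs in WT and 21, 1 and 5 in Fgf23cKO. The edgeR test called 3 of the 6 genes in Fgf23cKO (17.2% of 4845 genes), 1 in Dmp1KO (12.9%) and 2 in Dmp1KO/Fgf23cKO (33.9%), each as lower than WT. After thinning to equal depth the test called none, and levels at or under 3 UMIs give no reliable fold.

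**Figure D4:**
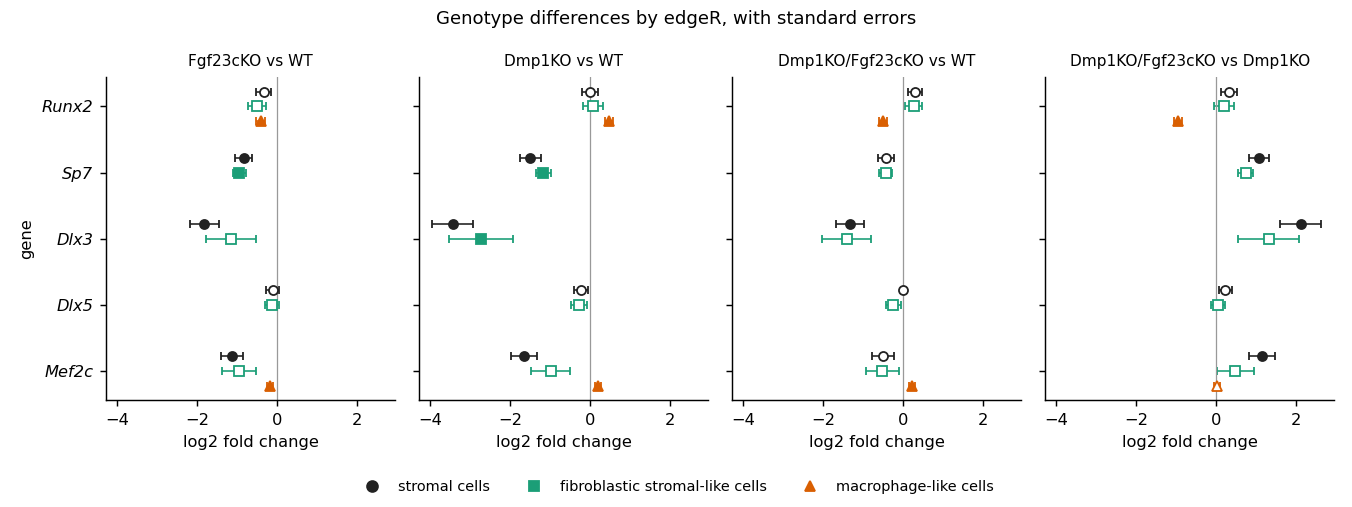
Log2 fold change (x axis) with SE for Runx2, Sp7, Dlx3, Dlx5 and Mef2c in stromal, fibroblastic stromal-like and macrophage-like cells, 1 panel per comparison; filled symbols passed an edgeR adjusted p of 0.1. In the Dmp1KO/Fgf23cKO against Dmp1KO panel, Sp7, Dlx3 and Mef2c lie at 1.06, 2.11 and 1.14 in stromal cells and Runx2 at -0.97 in macrophage-like cells.

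Genes around the 6 were examined as lists. Of 17 osteoblast matrix and differentiation genes tested in stromal cells, 12 were lower in Dmp1KO than in WT and none higher, with a median of -2.13, beside 13.6% of all genes that were lower. The deleted gene Dmp1, whose loss the genotype fixes, is 1 of the 12. Among the others were Bglap (-4.36 ± 0.69 SE, adjusted p = 0.001989), Smpd3 (-4.83, adjusted p = 0.0006816), the phosphate-regulating endopeptidase Phex (-3.08, adjusted p = 0.01509) and Col1a1, the main bone collagen (-2.44, adjusted p = 0.0007689). In Dmp1KO/Fgf23cKO, 11 of the 17 were higher than in Dmp1KO and none lower (median 1.55), beside 6.11% of all genes that were higher. The 11 included Bglap at 3.55 and the mineralization phosphatase Alpl at 1.18. In Fgf23cKO, 4 were lower (Smpd3, Col1a1, Col1a2 and Alpl) and 2 higher than in WT, the matrix phosphoprotein genes Mepe and Spp1, beside 15.6% of all genes called. Dmp1KO/Fgf23cKO against WT gave 2 in each direction, Dmp1 again among the lower ones, beside 20.4% of all genes called. The share of osteoblast/osteocyte-like cells moved with this list in the same way as with Sp7, Dlx3 and Mef2c, and its part was not tested. All 13 osteoblast markers used to name that class are also in this list, so the list and the share are not independent.

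Paralogs and partners of the 6 formed the next list. Of 11 tested, 2 were called in Dmp1KO against WT, beside 24.6% of all genes. Mef2a was lower (-0.89 ± 0.15, adjusted p = 0.002803) and Runx1, the blood-lineage RUNX gene, was higher (0.86 ± 0.16, adjusted p = 0.003817) in Dmp1KO than in WT. In Fgf23cKO Sp3 alone passed, as lower, beside 15.6% of all genes. In Dmp1KO/Fgf23cKO against WT none of the 11 passed edgeR's adjusted threshold, beside 20.4% of all genes. At an unadjusted p under 0.05, 2 (Runx1 and Sp3) were called, and the share of all genes there is not shown. Against Dmp1KO, Mef2a (1.09, adjusted p = 0.007156) and Mef2d were higher and Runx1 lower (-0.50, adjusted p = 0.07889), beside 10.7% of all genes called. Among 20 other osteoblast-lineage transcription factors tested, 6 were lower and 1 higher in Dmp1KO than in WT, also beside 24.6% of all genes called, with Klf4 at -1.33 (adjusted p = 0.01045) and the hedgehog effector Gli3 as the one that was higher, at 0.70 (adjusted p = 0.0103). Klf4 was higher in Dmp1KO/Fgf23cKO than in Dmp1KO, by 1.39 (adjusted p = 0.02091). Fgf23cKO gave 2 higher (Fosl1 and Twist1, a repressor of RUNX2 function) and 2 lower, beside 15.6% of all genes called. Dmp1KO/Fgf23cKO gave 2 lower than WT, beside 20.4% of all genes called.

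Of 20 BMP and Wnt pathway genes, the BMP antagonist Grem1 was higher than in WT in all 3 genotypes (2.26, 2.08 and 1.66 in Fgf23cKO, Dmp1KO and Dmp1KO/Fgf23cKO). The ligand Bmp4 was lower in Dmp1KO than in WT (-1.50, adjusted p = 0.02975) and higher in Dmp1KO/Fgf23cKO than in Dmp1KO (2.08, adjusted p = 0.0152). In all, 4 pathway genes were lower and 1 higher in Dmp1KO than in WT, a share close to the 24.6% called over all genes. Against Dmp1KO, 6 were higher and none lower in Dmp1KO/Fgf23cKO, beside 6.11% of all genes that were higher. Among 10 co-regulators of RUNX and MEF2, the acetyltransferase gene Ep300 was lower than WT in the 3 genotypes, by -0.44, -0.55 and -0.56, and Wwtr1 (TAZ) was higher in Dmp1KO/Fgf23cKO than in WT and Dmp1KO. No other co-regulator was called in these comparisons, beside 15.6, 24.6 and 20.4% of all genes called against WT and 10.7% against Dmp1KO.

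In macrophage-like cells, Runx2 and Mef2c were present in every culture and changed with genotype. Runx2 was 26.3, 22.5 and 24.7 CPM in WT, 20.1, 14.9 and 20.6 in Fgf23cKO, 30 and 31.2 in Dmp1KO and 16.7, 17 and 20.3 in Dmp1KO/Fgf23cKO. The Dmp1KO cultures stood above WT and the other 2 genotypes below it, with no overlap between either pair. Runx2 differed from WT by -0.40 ± 0.11 (SE, adjusted p = 0.008345) in Fgf23cKO, 0.47 ± 0.10 (adjusted p = 0.001045) in Dmp1KO and -0.50 ± 0.11 (adjusted p = 0.0007296) in Dmp1KO/Fgf23cKO by edgeR, and Dmp1KO/Fgf23cKO differed from Dmp1KO by -0.97 ± 0.10 (adjusted p = 4.222e-07). The interaction was -0.56 ± 0.15 (adjusted p = 0.00525). The untagged samples had 17.9 in WT, 19 in Fgf23cKO, 29.9 in Dmp1KO and 12.1 in Dmp1KO/Fgf23cKO, where the WT value from 28 UMIs lay below the WT cultures.

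Genotypes differed in which macrophage clusters they held, so these sums compare different mixtures. In WT, 81.4 to 85.6% of macrophage-like cells were in cluster 0, led by Marco and Maf among others. In Fgf23cKO and Dmp1KO/Fgf23cKO, 45.5 to 75.9% and 80.6 to 82.9% were in cluster 1, led by F13a1, while Dmp1KO cells spread over clusters 4, 1 and 10. By cluster, Runx2 was 19.1 in cluster 0, 19.2 in cluster 1, 31.7 in cluster 4, led by MHC class II genes, and 21.9 in cluster 10. Cluster 6, led by Slc7a11, had Runx2 at 29.6 and Mef2c at 254. With untagged samples included, it held 476 WT, 331 Fgf23cKO, 109 Dmp1KO and 209 Dmp1KO/Fgf23cKO cells. Within cluster 1 alone, Runx2 remained lower in Dmp1KO/Fgf23cKO than in Dmp1KO (-1.33, adjusted p = 6.74e-09, edgeR), while WT had 1.09 to 1.65% of its macrophage-like cells in this cluster. Relative to WT, Runx2 there was -1.05 in Fgf23cKO, 0.55 in Dmp1KO and -0.78 in Dmp1KO/Fgf23cKO, in the same directions as in all macrophage-like cells. None passed (adjusted p = 0.2607, 0.5202 and 0.406). Cluster 1 held 52 WT cells in all, the untagged ones included, so the size of these values is poorly known. With the 2 unnamed macrophage-marker clusters added, which held 882 to 1119 cells per Dmp1KO culture and 11 to 75 elsewhere, Runx2 was 0.55 (adjusted p = 0.001314) in Dmp1KO and -0.18 (adjusted p = 0.2831) in Fgf23cKO relative to WT. Thinned to equal depth, the Dmp1KO difference from WT was 0.40 (adjusted p = 0.1098) and the interaction -0.34 (adjusted p = 0.7127).

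Mef2c in macrophage-like cells was 570, 531 and 521 CPM in WT, 504, 529 and 413 in Fgf23cKO, 544 and 586 in Dmp1KO and 670, 665 and 611 in Dmp1KO/Fgf23cKO. Only the Dmp1KO/Fgf23cKO cultures did not overlap with WT. Mef2c differed from WT by -0.18 ± 0.07 (SE, adjusted p = 0.05018) in Fgf23cKO, 0.20 ± 0.08 (adjusted p = 0.04245) in Dmp1KO and 0.21 ± 0.07 (adjusted p = 0.01976) in Dmp1KO/Fgf23cKO, all small. With the 2 unnamed clusters added, the Dmp1KO difference turned to -0.39 (adjusted p = 0.006982), and the Dmp1KO/Fgf23cKO difference was 0.13 (adjusted p = 0.3043). Within cluster 1, with its few WT cells, the values were -0.27 in Fgf23cKO, 0.24 in Dmp1KO and 0.013 in Dmp1KO/Fgf23cKO. None passed (adjusted p = 0.1532, 0.2073 and 0.9654). The Fgf23cKO call was also lost without WT culture 1 or Fgf23cKO culture 3 (-0.082), and the Dmp1KO call without WT culture 2 or 3 or Dmp1KO culture 3. Between Dmp1KO/Fgf23cKO and Dmp1KO, Mef2c differed by 0.015 in all macrophage-like cells, which did not pass. This comparison depended on the cells chosen. Relative to WT, the 2 genotypes stood at 0.13 and -0.39 with the unnamed clusters added, and in the opposite order in cluster 1 (0.013 and 0.24).

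In these cells 49.3% of 13067 genes were called in Fgf23cKO against WT, 63.6% in Dmp1KO, 57.6% in Dmp1KO/Fgf23cKO and 54.7% in Dmp1KO/Fgf23cKO against Dmp1KO, and 53% for the interaction. A call of single genes here is therefore a common event. Of the 6 genes, Runx2, Mef2c and Sp7 had enough UMIs to be tested, and 3, 2, 3 and 2 of them were called in these comparisons and 1 for the interaction. Dlx3, Dlx5 and Msx2 had 0 to 6 UMIs per tagged culture and were not tested. The family members with more UMIs than Runx2 in macrophage-like cells included Runx1 (399 CPM) and Cbfb (79.7), and Mef2a (738) had more than Mef2c. Runx1 rose by 0.38, 0.53 and 0.53 relative to WT in Fgf23cKO, Dmp1KO and Dmp1KO/Fgf23cKO (adjusted p = 3.893e-05, 9.907e-07 and 5.111e-07).

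Droplets can carry free RNA from lysed stroma, so member UMIs in macrophage-like cells were set against the UMIs of 5 matrix genes (Col1a1, Col1a2, Col3a1, Sparc and Bglap), which 1 source of free RNA would hold constant within a reaction. Per 1000 matrix gene UMIs, macrophage-like cells had 176 Runx2 UMIs in WT, 91.1 in Fgf23cKO, 689 in Dmp1KO and 50 in Dmp1KO/Fgf23cKO, against 9.8, 14.7, 35.7 and 15.3 in stromal cells. The macrophage ratio was thus 18 times the stromal one in WT, 6.2 times in Fgf23cKO, 19.3 times in Dmp1KO and 3.27 times in Dmp1KO/Fgf23cKO, and in the last genotype the fibroblastic ratio was 35.6. Macrophage-like cells without any UMI of the 5 genes were mostly WT (1524) and Dmp1KO (1152), and in these cells Runx2 was 24 and 31.8 CPM, close to the 23.8 and 30.6 of all macrophage-like cells. Fgf23cKO and Dmp1KO/Fgf23cKO had 10 and 1 such cells, too few to measure. For Mef2c the macrophage ratio was 3960 in WT and 12800 in Dmp1KO against 9.32 and 11.4 in stroma.

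Sp7 had lower ratios. Its macrophage ratio was 1.54, 3.61, 2.62 and 3.16 per 1000 matrix gene UMIs in WT, Fgf23cKO, Dmp1KO and Dmp1KO/Fgf23cKO, against 2.58, 2.71, 3.63 and 2.52 in stromal cells. The ratios in both classes were within 0.597- to 1.33-fold of each other in every genotype. Per culture, Sp7 in macrophage-like cells was 0.179, 0.348 and 0.0976 CPM in WT, 0.506, 0.796 and 0.567 in Fgf23cKO, 0.131 and 0.0809 in Dmp1KO and 1.15, 0.849 and 1.35 in Dmp1KO/Fgf23cKO. The 5 matrix genes in the same cells stood at 124 to 143 in WT, 196 to 201 in Fgf23cKO, 43.9 to 45.6 in Dmp1KO and 343 to 349 in Dmp1KO/Fgf23cKO, in the same order of genotypes as Sp7. The edgeR calls for Sp7 in these cells (1.45 in Fgf23cKO, 2.22 in Dmp1KO/Fgf23cKO and 3.103 for Dmp1KO/Fgf23cKO against Dmp1KO; adjusted p = 0.05798, 0.001225 and 7.055e-05) rest on these few UMIs. In WT, 4 of the 6 Sp7 UMIs were in macrophage-like cells with no UMI of the 5 genes, at 0.377 CPM against 0.208 in all macrophage-like cells, and in Dmp1KO 2 of 6 were, at 0.1 against 0.117. Whether the Sp7 UMIs came from free RNA was not tested. Of 15 matrix and differentiation genes tested there, 8 were called higher and 2 lower in Fgf23cKO than in WT, 2 higher and 12 lower in Dmp1KO, and 10 higher and 2 lower in Dmp1KO/Fgf23cKO, beside 49.3, 63.6 and 57.6% of all genes called.

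**Figure D5:**
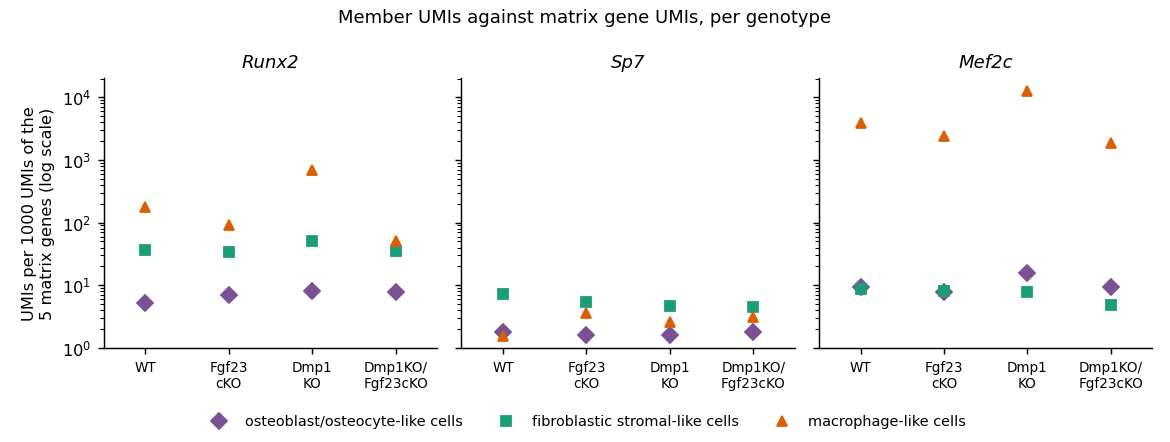
UMIs of Runx2, Sp7 and Mef2c per 1000 UMIs of the 5 matrix genes (y axis, log scale) in each genotype, all samples of a genotype summed, in 3 cell classes. Sp7 stays between 1.54 and 7.2 in all 3 classes, while Runx2 and Mef2c in macrophage-like cells reach 689 and 12800 in Dmp1KO.

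The genotype differences of stromal and macrophage-like cells were set against each other in 1 edgeR fit with the culture as a block. The Mef2c difference in stroma minus that in macrophage-like cells was -1.78 ± 0.26 (SE, adjusted p = 0.0009989) for Dmp1KO against WT, -0.93 (adjusted p = 0.07961) for Fgf23cKO against WT and 1.13 (adjusted p = 0.01435) for Dmp1KO/Fgf23cKO against Dmp1KO. For Runx2 it was 0.87 ± 0.21 (adjusted p = 0.04239) for Dmp1KO/Fgf23cKO against WT and 1.29 ± 0.23 (adjusted p = 0.003021) against Dmp1KO, while Fgf23cKO (0.12, adjusted p = 0.8957) and Dmp1KO (-0.42, adjusted p = 0.3556) against WT did not pass. Of 14638 genes, 1.69% passed for Fgf23cKO, 8.01% for Dmp1KO and 3.66% for Dmp1KO/Fgf23cKO against WT, and 11.5% for Dmp1KO/Fgf23cKO against Dmp1KO. Of the members, 2, 1, 2 and 3 passed, Sp7 among them in all but the Dmp1KO comparison, and its macrophage side rests on few UMIs. The Runx2 call against WT was lost without WT culture 1 or 3 or Dmp1KO/Fgf23cKO culture 1 or 2 (adjusted p = 0.1089 to 0.186). The Mef2c call for Fgf23cKO was lost without WT culture 2 or 3 or Fgf23cKO culture 1 or 3, and that against Dmp1KO without Dmp1KO culture 3 (adjusted p = 0.1085).

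The share of cells with a UMI at equal depth was compared by an exact two-sided permutation test over cultures, for Runx2, Sp7 and Mef2c in stroma and Runx2 and Mef2c in macrophage-like cells. Runx2 was detected in 39.5 to 41.5% of thinned stromal cells in WT, 20 to 39.2% in Fgf23cKO, 26 to 31% in Dmp1KO and 25.9 to 37.2% in Dmp1KO/Fgf23cKO. The WT range was above the other 3, although the Runx2 level in CPM was not lower in Dmp1KO/Fgf23cKO. These shares count the cells of all stromal subsets alike, so they also follow the mixture of subsets. Sp7 was detected in a mean of 19.1% in WT, 4.3% in Fgf23cKO, 5.91% in Dmp1KO and 8.6% in Dmp1KO/Fgf23cKO. With 10 or 20 possible splits the smallest p is 0.1, and over 20 tests the adjusted p was 0.143 or more, so this test could not reach the threshold.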

How the data were processed

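BMSC cultures were sequenced with a 10x 3′ kit, 1 reaction per genotype with CellPlex tags, which the authors demultiplexed with Cell Ranger 7.0.1 against mm10; multiplets were removed by tag, and no further doublet caller was run. Whether introns were counted was not given in the sources used here. The authors deposited raw UMI counts per gene and cell, with no normalization. Here, 17793 cells were normalized and clustered in Seurat 5.3.0 with sctransform 0.4.2 (30 principal components, resolution 0.8). Classes were named from marker lists that excluded the 6 genes. CPM are class sums per 1000000 UMIs of those cells. Counts of tagged cultures with at least 10 cells of a class were summed and tested with edgeR 4.0.16 (R 4.3.3; TMM, filterByExpr, quasi-likelihood, Benjamini-Hochberg threshold 0.1). Alternatives included DESeq2 1.42.0, other filters, clusterings and thinning. Named were the 6 genes, listed relatives past the threshold or with more UMIs, and list examples. The members and lists were chosen with earlier results of these data known. On simulated counts for Dmp1KO against WT, the fit recovered 42.7% of 103 genes changed by 1 log2 unit and 76.1% of 92 changed by 2 among 12170 stromal genes, and 86% and 95.9% among 12706 macrophage genes.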

Additional observations from a re-analysis of the deposited data

Results flagged for a closer look

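The stromal Dlx3 level of Fgf23cKO culture 3 stood apart at 4.1 CPM, against 12.2, 12.8 and 11.8 in the other 3 Fgf23cKO samples, the untagged one included. Of 25 groups of samples checked this way, 1 was singled out, and chance alone would do so in about 1 in 20. This culture had the lowest share of stromal UMIs from osteoblast/osteocyte-like cells of its genotype, 9.1%.

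The difference made by Fgf23 deletion differed between Dmp1-intact and Dmp1-deficient cultures, by edgeR's interaction term, for Sp7 (1.896, adjusted p = 0.005559), Dlx3 (3.931, adjusted p = 0.004123) and Mef2c (2.263, adjusted p = 0.007915) in stromal cells. Without the osteoblast/osteocyte-like cells, the stromal interaction still passed for Sp7 (1.722) but not for Dlx3 (2.296, adjusted p = 0.1987) or Mef2c (1.328, adjusted p = 0.2545). In macrophage-like cells it differed for Runx2 (-0.5649, adjusted p = 0.00525). The Runx2 interaction did not pass in the F13a1 cluster alone (-0.2782, adjusted p = 0.7992, edgeR) or when thinned to equal depth.

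The genotype difference in stromal cells minus that in macrophage-like cells passed for Mef2c in Fgf23cKO against WT (-0.9348), Dmp1KO against WT (-1.784) and Dmp1KO/Fgf23cKO against Dmp1KO (1.127). It passed for Runx2 in Dmp1KO/Fgf23cKO against WT (0.8706) and against Dmp1KO (1.295). For Sp7 it passed in Fgf23cKO against WT (-2.247), Dmp1KO/Fgf23cKO against WT (-2.59) and Dmp1KO/Fgf23cKO against Dmp1KO (-1.961), and the macrophage side of these 3 values rests on 1 to 27 Sp7 UMIs per culture.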

How the results depend on the processing

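Called values of single genes kept their direction and call in 860 of 951 refits, and 90 lost the call. The 1 reversal was Mef2c in macrophage-like cells of Dmp1KO against WT, which became -0.39 with the 2 unnamed clusters added, a choice made after seeing the data. Not every uncalled value was followed through the refits. That of Mef2c in macrophage-like cells between Dmp1KO/Fgf23cKO and Dmp1KO (0.015) was not among those followed. Of the uncalled values followed, those near 0 changed sign for Runx2 only. In stromal Dmp1KO against WT (-0.01), it was 0.016 with RLE factors or DESeq2, 0.063 without the count filter, 0.056 without osteoblast/osteocyte-like cells, 0.088 with the replicate block and 0.11 at resolution 0.4, and -0.16 to 0.14 with 1 culture left out. In fibroblastic cells Runx2 (0.07) was -0.26 with untagged samples, -0.0051 at resolution 0.4 and -0.043 when thinned, and -0.073 to 0.21 with 1 culture left out.

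Counts of called genes moved as follows, here and in the next paragraph. The share of all genes called at each setting is not shown, so these moves cannot be read as a result about the 6 genes. In stromal cells, untagged samples as replicates gave 5 for Dmp1KO/Fgf23cKO against Dmp1KO and 5 for the interaction (each 3), thinning gave 2 against WT and 1 against Dmp1KO, and leaving out osteoblast/osteocyte-like cells, chosen after seeing the data, gave 1, 0, 1 and 1 for Fgf23cKO, Dmp1KO/Fgf23cKO against WT, against Dmp1KO and the interaction. Leaving out 1 culture gave 0 to 3 against WT (0 without WT replicate 3) and 0 to 3 against Dmp1KO. In macrophage-like cells the stricter threshold gave 1 for Fgf23cKO, thinning gave 1, 1, 1 and 0 for Fgf23cKO, Dmp1KO, Dmp1KO/Fgf23cKO against Dmp1KO and the interaction, and clustering without the 6 genes or at resolution 1.2 gave 1 for Dmp1KO and 2 for the interaction. The F13a1 cluster alone gave 0 for the 3 comparisons with WT and the interaction, the 2 unnamed clusters gave 2 for the interaction, and leaving out 1 culture gave 1 to 3, 1 to 2, 1 to 2 and 1 to 2. In contractile cells, thinning gave 0 in the 3 comparisons with WT, the Dmp1KO count (1) was 0 with DESeq2, the replicate block or the stricter threshold, and Dmp1KO/Fgf23cKO against Dmp1KO (0) was 1 without the filter, with at least 20 cells or at resolution 0.4, with leave-one-out ranges of 1 to 3, 0 to 1 and 0 to 1.

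In fibroblastic cells, Fgf23cKO (1) gave 3 without the filter or at resolution 0.4, 2 with untagged samples and 0 when thinned, and 1 to 3 with 1 culture left out. Dmp1KO (2) gave 1 at the stricter threshold, 0 when thinned and 1 to 2. Dmp1KO/Fgf23cKO against WT (0) gave 1 with RLE, untagged samples or resolution 0.4, 2 without the filter or with at least 20 cells, and 0 to 1. Against Dmp1KO (0) it gave 1 without the filter, with DESeq2, untagged samples or at least 20 cells, 3 at resolution 0.4, and 0 to 1. In osteoblast/osteocyte-like cells the count of 1 was 2 without the filter or with untagged samples, 0 when thinned and 0 to 1. Between classes, Fgf23cKO (2) gave 0 at the stricter threshold and 1 at resolution 0.4 or thinned, Dmp1KO (1) gave 2 with untagged samples, and Dmp1KO/Fgf23cKO against WT (2) gave 4 without the filter and 1 at resolution 1.2. Their leave-one-out ranges were 0 to 2 and 1 to 3, and 1 to 3 against Dmp1KO. The cause of these moves was not tested.

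Same-numbered cultures did not deviate together (r between -0.0935 and 0.0411 in macrophage-like cells, -0.149 and 0.134 in stroma), so the numbers pair nothing. A replicate block ended 2 of 34 calls, Sp7 in contractile cells for Fgf23cKO and Dmp1KO. In macrophage-like cells Dlx3, Dlx5 and Msx2 stood at 0.0481, 0.128 and 0.0107 CPM, against 13.7, 31.2 and 3.03 in stromal cells. Depth limits every gene in contractile cells.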

Other observations

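The unnamed Lingo2 cluster (128 cells, median 2731 UMIs) had Runx2 at 154 CPM, Sp7 at 36.6 and Mef2c at 239. The unnamed Sox6 Acan cluster (115 cells) came from WT and Fgf23cKO but for 2 cells, with Runx2 at 795, Sp7 at 24.1, Dlx5 at 3.96 and Mef2c at 594. Dlx3 had no UMI there, where a count of 0 allows up to 1.08 CPM. Neither cluster entered a comparison.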
